A study of Pseudotsuga menziesii with 75 samples.

Results

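The galactinol and raffinose synthesis genes of Douglas-fir (Pseudotsuga menziesii) needles were represented by 40 of the 59189 assembled contigs in the count table. A contig was taken as a member when its annotation cell began with 1 of 7 Arabidopsis loci for galactinol synthases and for raffinose or stachyose synthases, so members were chosen by annotation and presence in the table and not selected on any count. The 7 loci were proposed with earlier results of these data known, so counts of members that passed are descriptions. The table held 5 of the 7 loci. AT2G47180 (galactinol synthase GolS1 in Arabidopsis) had 9 contigs, AT1G60470 (GolS4) had 6, AT5G40390 (raffinose synthase RS5) had 10, AT4G01970 (stachyose synthase) had 1 and AT3G57520 (SIP2) had 14. No contig carried AT1G56600 (GolS2) or AT1G09350 (GolS3). These loci are nearest Arabidopsis matches and not proven orthologues, and several contigs of a locus may be copies, alleles or pieces of a single transcript.

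Galactinol synthase joins galactose from UDP-galactose to myo-inositol, and raffinose synthase then moves that galactose from galactinol onto sucrose. Stachyose synthase adds a further galactose to raffinose. These soluble sugars build up in many plants during heat, drought and cold, and raffinose is among the sugars that rise in conifer needles during cold hardening. In Arabidopsis, GolS1 transcripts respond to heat and drought, and SIP2 is an alkaline alpha-galactosidase that breaks raffinose down although its sequence resembles raffinose synthases.

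The 75 RNA-seq libraries came from 25 adult trees of 2 North American provenances, the interior Salmon Arm and the coastal Cameron Lake, growing at 2 field sites in south-western Germany, Wiesloch in the lowland and Schluchsee in the mountains. Every group was untreated needle tissue of the previous year's growth from the sun-exposed upper canopy, and each provenance stood at both sites. In 2010 the May visits were on day 12 at Wiesloch (10 libraries) and day 27 at Schluchsee (10), and the June visits on day 16 at Wiesloch (8) and day 30 at Schluchsee (9). July was sampled on day 14 at Wiesloch (10) and day 28 at Schluchsee (10), September on day 8 at Wiesloch (10) and day 15 at Schluchsee (8). Each of the 16 groups of provenance, site and month held 4 or 5 trees. A site and month had a single visit, so a month cannot be told apart from the weather of that day, and the site comparison within a month also compares different days. Whole needles hold several tissues, so fewer cells of a type and less RNA per cell cannot be told apart.

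Library totals spanned 18.54 to 47.51 M counts around a median of 34.05 M, where M is 10 to the power 6. Levels are CPM, counts scaled to a library total of 1 M, after trimmed-mean (TMM) scaling, whose factors lay between 0.897 and 1.11. Contig lengths are not given in the sources used here, so levels are compared between libraries and never between contigs. The table holds no 0. Its most frequent low value was 2 in 72 libraries and 4 in the other 3, which makes levels near 0.1 CPM uncertain. Counts under it also occur, and counts at or under it are called lowest values below. The 3 libraries with 4 (Salmon Arm tree 14 in July at Wiesloch, and trees 13 and 14 in September at Schluchsee) were set apart. The May library of Salmon Arm tree 14 at Wiesloch was set apart too, although its low value was 2. Without these 4 libraries, 3 of the 56 calls of the 11 contigs followed through every alternative were lost. Of the marker lists, 5 of 6 mesophyll loci were measured, with a summed level between 6857 and 18215 CPM in every library. The single measured phloem locus ran from 0.296 to 12.9 CPM over the libraries.

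Of the members that passed from June to July, all rose at Wiesloch and most fell at Schluchsee. Those at Wiesloch belonged to AT1G60470 and AT3G57520 alone, and the median log2 difference of all 40 members was -0.16 there. From May to June at Wiesloch 0 of 40 contigs passed an adjusted p of 0.05 in edgeR's quasi-likelihood test, against 7.77% of all contigs (3.96% higher and 3.82% lower), with 5 at an unadjusted p under 0.05 and 2 passing in DESeq2. From June to July at Wiesloch 11 rose and 0 fell, against 25.1% of all contigs (12.3% that rose and 12.8% that fell). From July to September at Wiesloch 6 rose and 12 fell, against 42% (20.2% that rose and 21.7% that fell). At Schluchsee 13 rose and 2 fell from May to June, against 14% (7.11% that rose and 6.94% that fell). From June to July there 1 rose and 14 fell, against 17% (8.88% that rose and 8.16% that fell). From July to September at Schluchsee 14 rose and 0 fell, against 7.68% (3.77% that rose and 3.91% that fell). The month course differed between the sites for 24 contigs, against 34.9%, and between the provenances for 0 contigs, against 0.00338%, with 2 at an unadjusted p under 0.05. Counted in both directions, the shares of changed members in the 2 later steps at Wiesloch lay near the background, and those at Schluchsee lay above it. The median log2 difference of the 40 members was 0.26, -0.16 and -0.09 over the 3 steps at Wiesloch and 0.57, -0.62 and 0.55 over those at Schluchsee, while the median of all contigs lay between -0.03 and 0.01 in each step. Of the 5 mesophyll markers, 3 fell from June to July at Wiesloch, where their summed level ran from 10763 to 16271 CPM in June and from 7938 to 12567 CPM in July. At Schluchsee 2 of the 5 fell in that step, with sums from 10956 to 17609 CPM in June and from 6857 to 13471 CPM in July. From July to September 0 of the 5 passed at Wiesloch, and 1 rose at Schluchsee. The part of these markers in the members' changes was not tested. Contigs of a locus moved together, so these counts are not counts of independent genes.

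**Figure D1:**
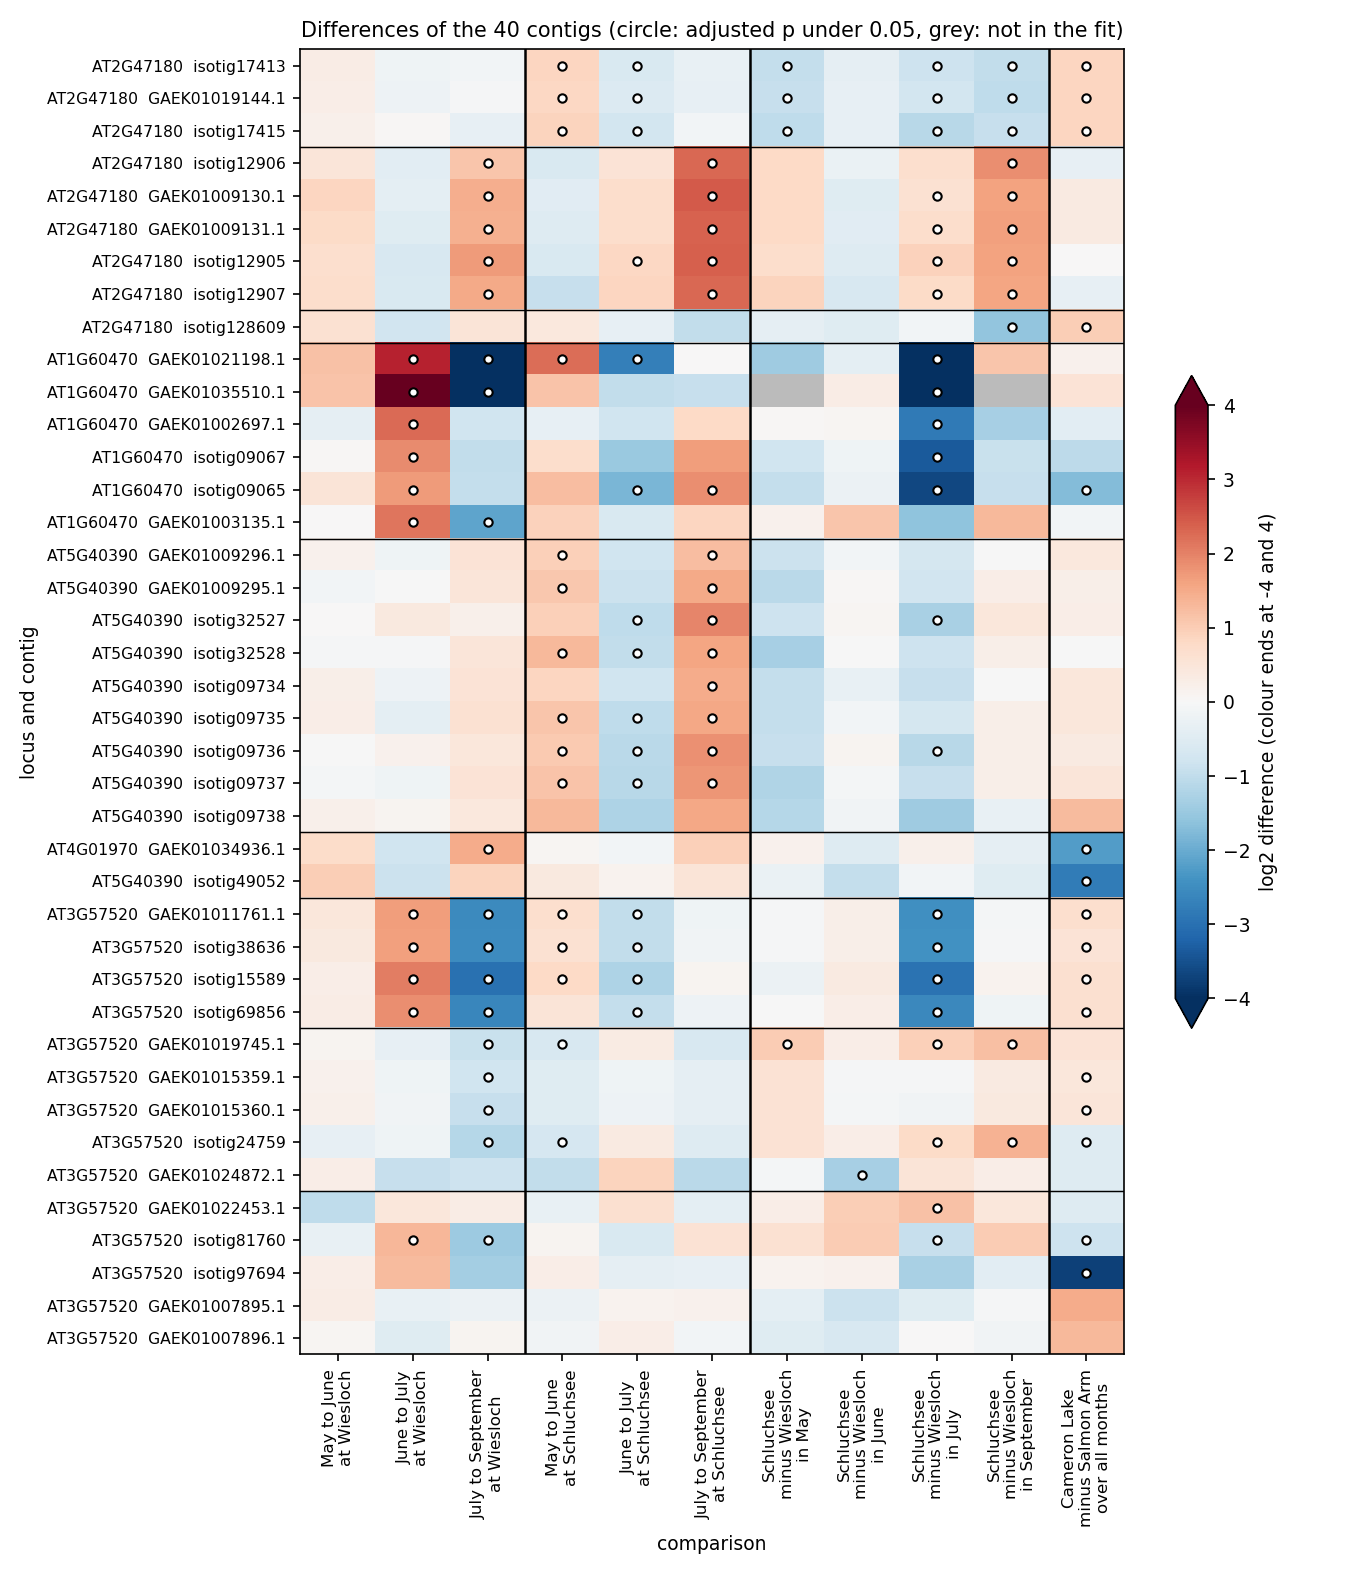
Log2 difference (colour, ends at -4 and 4) of each of the 40 contigs (rows, with locus, horizontal lines parting the contig groups) in 11 comparisons (columns), where a circle marks an adjusted p under 0.05 and grey a contig left out of that fit. The abundant AT2G47180 contigs at the top are blue in the site columns, the contigs under them are red from July to September, and the AT1G60470 and 4 of the AT3G57520 contigs are red from June to July at Wiesloch and blue after it.

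Galactinol synthase AT2G47180 made up 0.492% of all counts, between 0.131% and 0.995% of a library, nearly all of it in 3 contigs. These were isotig17413, GAEK01019144.1 and isotig17415, whose log levels had pairwise correlations of 0.96 to 0.99 over the 75 libraries. Libraries share trees, site and day, and reads of near-identical copies may have been split between the contigs. In the deposited annotation all 9 contigs of AT2G47180 are described as glycogenin-1. The name galactinol synthase used for them comes from the Arabidopsis match. At Wiesloch isotig17413 kept a mean of 2168 ± 536 CPM in May (SD, n = 10), 2710 ± 977 in June (n = 8), 2359 ± 641 in July (n = 10) and 2221 ± 709 in September (n = 10). At Schluchsee its mean was 1159 ± 420 CPM in May (n = 10), 2282 ± 1126 in June (n = 9), 1624 ± 1070 in July (n = 10) and 1261 ± 740 in September (n = 8). The Schluchsee libraries ran from 478 through a median of 1080 to 1883 CPM in May and from 1020 through 1637 to 3897 CPM in June, so the months overlapped.

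The 3 abundant contigs rose from May to June at Schluchsee, by 0.83 to 0.88 on the log2 scale. For isotig17413 the difference was 0.86 ± 0.18 (SE) with an adjusted p of 0.00045. From June to July at Schluchsee they fell by 0.56 to 0.73, for isotig17413 by 0.62 ± 0.18 with an adjusted p of 0.012. Without tree 13 of Salmon Arm at Schluchsee that adjusted p was 0.054. None of the 3 passed for any month step at Wiesloch. Whether the month course differed between the sites did not pass for isotig17413 (adjusted p = 0.19).

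Within a month, with provenance as a covariate, the 3 abundant contigs were lower at Schluchsee than at Wiesloch in May, July and September. The difference of isotig17413 was -0.95 ± 0.18 in May (adjusted p = 0.0093), -0.82 ± 0.29 in July (adjusted p = 0.028) and -0.99 ± 0.19 in September (adjusted p = 0.0047). The fit takes the site difference as common to both provenances. In July the Salmon Arm libraries of isotig17413 ran from 466 to 1021 CPM at Schluchsee and from 1366 to 2994 CPM at Wiesloch. The Cameron Lake libraries ran from 1698 to 3313 CPM at Schluchsee and from 1817 to 3471 CPM at Wiesloch, which overlapped. In May 1 member was higher and 3 were lower at Schluchsee of 39 tested, against 3.01% of all contigs (1.09% higher and 1.91% lower). In June 0 were higher and 1 was lower, against 3.13% (1.56% higher and 1.57% lower). In July 7 were higher and 15 were lower, against 41.4% (21.1% higher and 20.2% lower). In September 7 were higher and 4 were lower of 39, against 8.07% (3.8% higher and 4.27% lower). The members had a median difference of 0.23 in September, against -0.79 in July, -0.11 in June and -0.23 in May, with the median of all contigs between -0.01 and 0.01. With the clock time of sampling as a covariate, in the 62 libraries with a single recorded time, no member passed in May or June and 14 passed in July. Of all contigs, 0 of 58492 passed in May, 31 of 58958 in June and 17753 of 58207 in July with that covariate. Of the May libraries with a time, all but 1 at Schluchsee were taken earlier in the day than any at Wiesloch. Clock time and site can therefore hardly be told apart in May. For June, most Wiesloch libraries had no single recorded time. With clock time, isotig17413 had a difference of -0.88 with an adjusted p of 0.84 in May and of -0.48 with an adjusted p of 0.18 in July. The July call of isotig17413 was also lost, with an adjusted p of at most 0.061, without 1 of 4 Salmon Arm trees (12, 13, 14 and 15) at Schluchsee.

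A further 5 AT2G47180 contigs had their highest means in September at both sites. They were isotig12905, isotig12906, isotig12907, GAEK01009130.1 and GAEK01009131.1, with pairwise correlations of 0.85 to 0.98. This grouping, like the others described, was formed after the values were seen. At Schluchsee GAEK01009130.1 ran from 2.05 through a median of 2.65 to 9.86 CPM in May, from 1.26 through 2.30 to 4.67 in June, from 2.60 through 3.70 to 7.51 in July and from 7.98 through 17 to 56.1 in September. Every September library there lay above every July library. At Wiesloch it ran from 1.27 through 2.30 to 4.65 CPM in July and from 4.19 through 7.03 to 10.6 CPM in September, where the months overlapped. From July to September the contig rose by 2.45 ± 0.30 on the log2 scale at Schluchsee (adjusted p = 7.2e-09) and by 1.46 ± 0.28 at Wiesloch (adjusted p = 2.3e-05).

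The 5 contigs rose from July to September by 2.31 to 2.45 at Schluchsee and by 1.12 to 1.71 at Wiesloch, and each passed at both sites. Each was higher at Schluchsee in September, by 1.58 to 1.86. Their month course differed between the sites in all 5, with an adjusted p of 0.00071 for GAEK01009130.1 and of 0.019 for isotig12906. The abundant isotig17413 had a September mean of 1261 CPM at Schluchsee against 1624 CPM in July, a difference that did not pass. The last AT2G47180 contig, isotig128609, was lower at Schluchsee in September, with a difference of -1.59 ± 0.39 (adjusted p = 0.017).

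**Figure D2:**
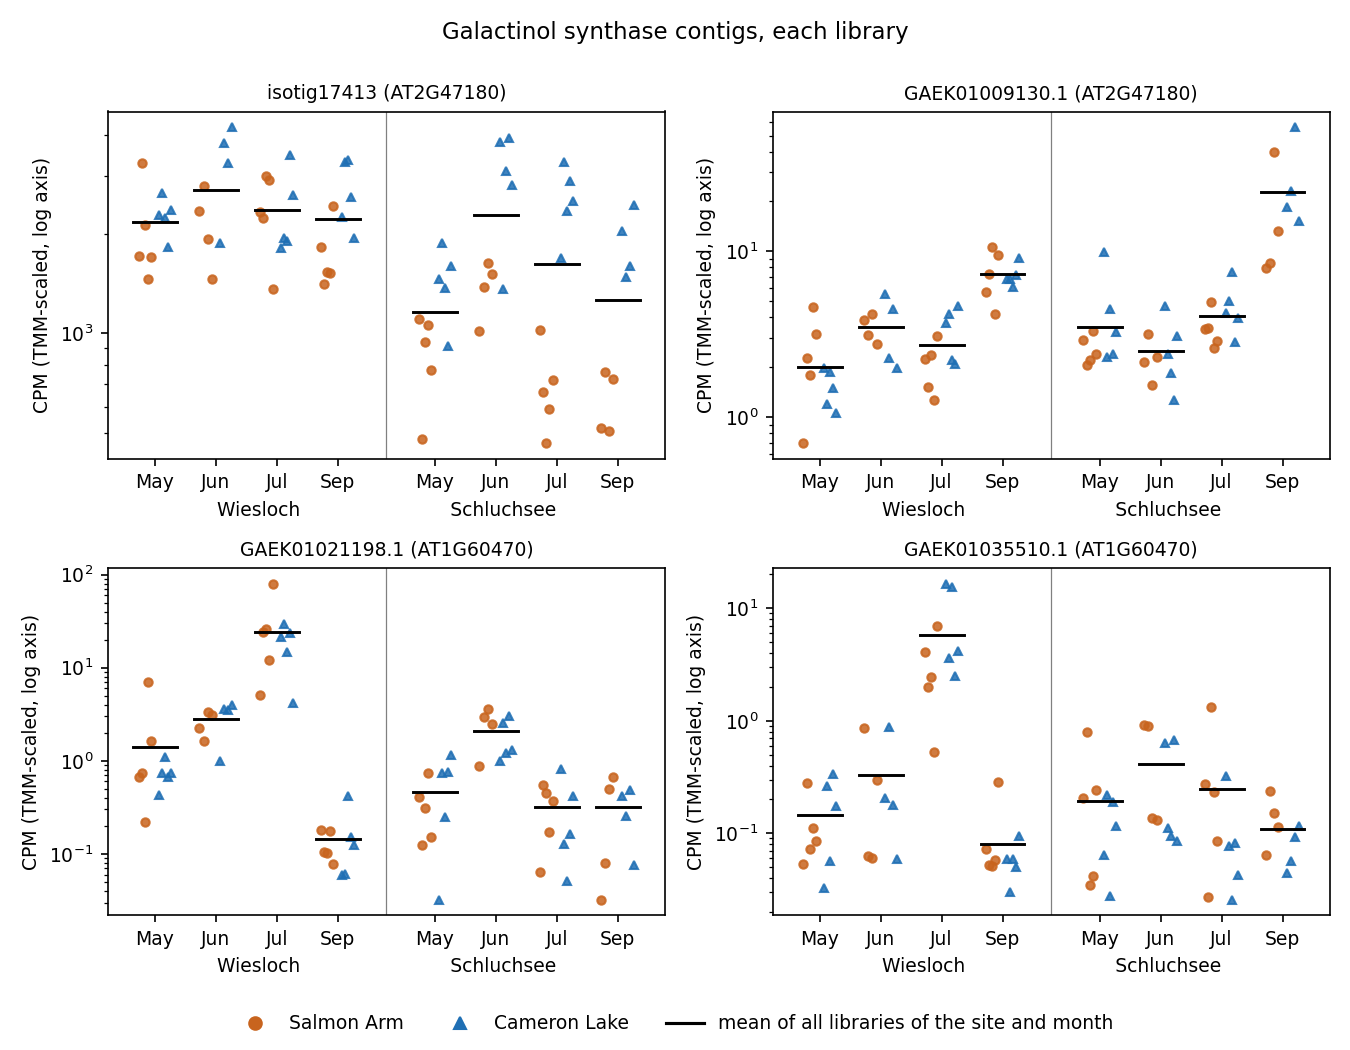
CPM (log axis) of 4 galactinol synthase contigs in each library by site and month, with circles for Salmon Arm, triangles for Cameron Lake and a line for the mean of a site and month. In isotig17413 the mean at Schluchsee lies under that at Wiesloch in each month (1159 against 2168 CPM in May), in GAEK01009130.1 the September libraries lie highest at Schluchsee (7.98 to 56.1 CPM), and both AT1G60470 contigs are highest in July at Wiesloch.

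All 6 contigs of galactinol synthase AT1G60470 rose from June to July at Wiesloch, and 3 of the 6 fell from July to September. The most counted, GAEK01021198.1, ran at Wiesloch from 0.218 through a median of 0.735 to 7.01 CPM in May, from 0.983 through 3.19 to 3.96 in June, from 4.21 through 22.5 to 79.1 in July and from 0.0586 through 0.115 to 0.415 in September. Every July library lay above every June and every September library. At Schluchsee it ran from 0.0323 through 0.36 to 1.15 CPM in May, from 0.872 through 2.47 to 3.57 in June, from 0.0516 through 0.274 to 0.812 in July and from 0.0323 through 0.338 to 0.677 in September, so that its high month there was June. The contig rose by 3.07 ± 0.54 from June to July at Wiesloch (adjusted p = 1.1e-05) and fell by 7.31 ± 0.62 from July to September (adjusted p = 3.5e-15). At Schluchsee it rose by 2.22 ± 0.51 from May to June (adjusted p = 0.0013) and fell by 2.75 ± 0.52 from June to July (adjusted p = 7.4e-05). It was at or under the most frequent low value of a library in 6 of 75 libraries, so the size of the fall to September is uncertain.

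The rises of the 6 contigs ran from 1.69 to 3.97, and their pairwise correlations over libraries were 0.23 to 0.87. The strongest rise was that of GAEK01035510.1, by 3.97 ± 0.63 (adjusted p = 1.6e-06), from a mean of 0.327 ± 0.349 CPM (SD, n = 8) to 5.81 ± 5.62 CPM (n = 10). It then fell by 5.97 ± 0.66 to September (adjusted p = 2.8e-11), and it was at or under the most frequent low value in 28 libraries. A single library, Cameron Lake tree 9 in July at Wiesloch, was the highest of that site and month in the other 4 contigs. It had 16.5 CPM of GAEK01002697.1 against a median of 1.57 CPM, and 15.1 CPM of GAEK01003135.1 against a median of 0.620 CPM. For isotig09067 it had 12 CPM against a median of 1.61 CPM, and for isotig09065 4.57 CPM against 0.858 CPM. For GAEK01035510.1 it had 15.5 CPM, under the highest of 16.4 CPM, and for GAEK01021198.1 14.9 CPM, under the median of 22.5 CPM. With clock time as a covariate the June to July rises of GAEK01002697.1 and isotig09065 did not pass. That fit left out libraries without a single recorded time. It kept only tree 9 of Cameron Lake in June at Wiesloch, so clock time and the loss of libraries cannot be told apart there. The call for isotig09065 was also lost without tree 9 of Cameron Lake at Wiesloch, with an adjusted p of 0.12. Of the 6 contigs, 3 are described as galactinol synthase and 3 as glycogenin in the deposited annotation, a family of sugar transferases related to galactinol synthase.

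Raffinose synthase AT5G40390 followed a course at Schluchsee with a June and a September maximum. GAEK01009296.1, its most counted contig, had a mean of 29.2 ± 18.9 CPM in May (SD, n = 10), 58.1 ± 21.6 in June (n = 9), 36.7 ± 30.9 in July (n = 10) and 76 ± 22.5 in September (n = 8). Its Schluchsee libraries ran from 7.95 to 71.5 CPM in May and from 35.5 to 110 CPM in September, so the months overlapped. It rose by 0.94 ± 0.31 from May to June (adjusted p = 0.029) and by 1.24 ± 0.32 from July to September (adjusted p = 0.0063), while its June to July difference did not pass. The May to June call was lost without 1 of 5 Schluchsee trees, with an adjusted p of at most 0.074. The July to September rise had an adjusted p of 0.088 without the 4 libraries that were set apart.

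The AT5G40390 contigs described as raffinose synthase numbered 9, and 8 of them rose from July to September at Schluchsee, by 1.24 to 1.96. None of the 9 passed for a month step at Wiesloch, where GAEK01009296.1 had means of 53 ± 32.2, 64.7 ± 32.8, 52.8 ± 18.2 and 76.8 ± 21.4 CPM in May, June, July and September. The difference between the sites in month course passed for 6 of the 9, with adjusted p-values of 0.012 to 0.042, and did not pass for GAEK01009296.1 (adjusted p = 0.24). All but GAEK01009296.1, GAEK01009295.1 and isotig32527 had site and month means of at most 1.19 CPM. Like the abundant galactinol synthase, the contigs had higher means in June than in May and July at Schluchsee. Unlike it, 8 of the 9 rose from July to September.

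AT3G57520 contigs did not share a single course. The 4 contigs GAEK01011761.1, isotig38636, isotig15589 and isotig69856, described as galactinol-sucrose galactosyltransferase 2-like, had pairwise correlations of 0.94 to 0.99. At Wiesloch GAEK01011761.1 ran from 30.7 through a median of 42.1 to 88.4 CPM in May, from 41.7 through 61.4 to 101 in June, from 79.1 through 179 to 636 in July and from 22.4 through 37 to 50.9 in September. At Schluchsee it ran from 27.6 through 48.2 to 71 CPM in May, from 40.6 through 60.3 to 154 in June, from 23.8 through 36.1 to 51.2 in July and from 17.3 through 37.1 to 50.3 in September. Every July library at Wiesloch lay above every September library there and above every July library at Schluchsee. The 636 CPM library was Cameron Lake tree 9, and the next highest, Cameron Lake tree 13, had 352 CPM.

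The 4 contigs rose from June to July at Wiesloch by 1.64 to 2.05 and fell from July to September by 2.51 to 2.99. For GAEK01011761.1 the rise was 1.66 ± 0.24 (adjusted p = 1.7e-07) and it fell by 2.55 ± 0.23 afterwards (adjusted p = 1.9e-14). At Schluchsee they fell from June to July by 0.95 to 1.24. In July they were lower at Schluchsee, with differences of -2.96 to -2.41, and for GAEK01011761.1 of -2.46 ± 0.28 (adjusted p = 8.4e-07). Of the 4, 3 also rose from May to June at Schluchsee, by 0.62 to 0.81. The calls of GAEK01011761.1 and isotig38636 in that step were lost with clock time as a covariate (adjusted p of 0.13 and 0.12) and without single trees.

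The 5 AT3G57520 contigs described as 6-like had no July peak at Wiesloch. From July to September at Wiesloch 4 of them fell by 0.80 to 1.13. GAEK01019745.1, the most counted, had means at Wiesloch of 37.3 ± 14.1, 39 ± 8.92, 30.9 ± 6.12 and 17.2 ± 6.95 CPM in May, June, July and September. At Schluchsee it had 72.1 ± 23, 47.4 ± 16, 61 ± 25.2 and 43 ± 27.2 CPM. It was higher at Schluchsee by 1.0 ± 0.21 in May (adjusted p = 0.014), by 0.94 ± 0.18 in July (adjusted p = 0.00027) and by 1.19 ± 0.24 in September (adjusted p = 0.0054). Counts summed over all 14 contigs of the locus mix both courses. The sum rose by 0.94 ± 0.15 from June to July at Wiesloch (adjusted p = 1.3e-06), and none of its month steps at Schluchsee passed.

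**Figure D3:**
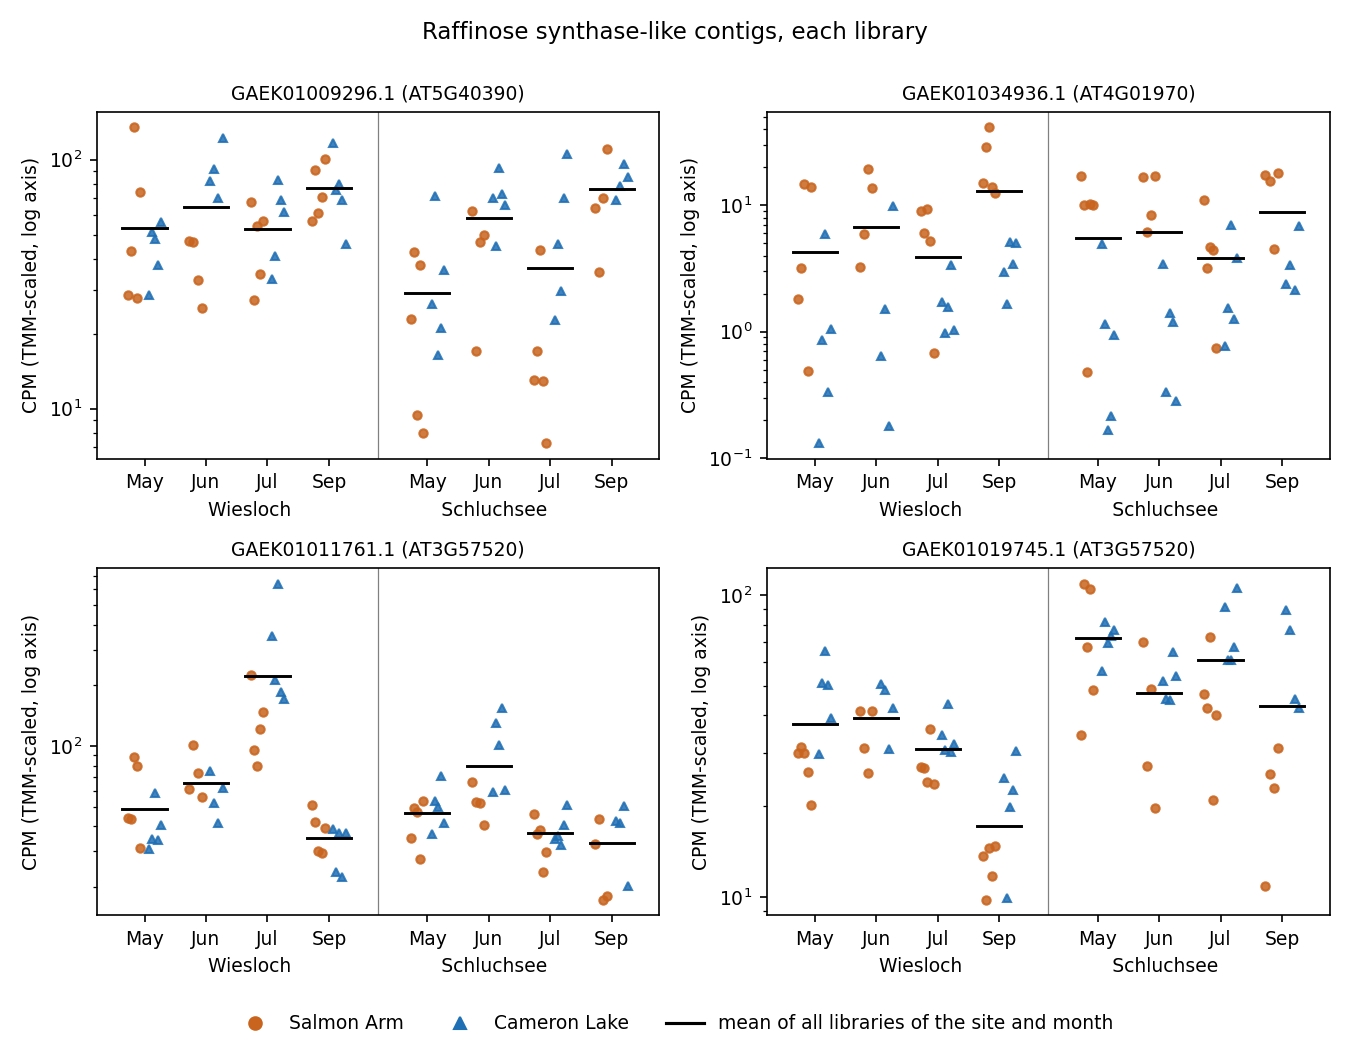
CPM (log axis) of 4 contigs annotated to raffinose and stachyose synthases in each library by site and month, with circles for Salmon Arm, triangles for Cameron Lake and a line for the mean of a site and month. GAEK01011761.1 is highest in July at Wiesloch (79.1 to 636 CPM), GAEK01019745.1 is higher at Schluchsee, and in GAEK01034936.1 most triangles lie under the circles.

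Of the 5 remaining AT3G57520 contigs, isotig81760 rose by 1.34 ± 0.39 from June to July at Wiesloch and GAEK01022453.1 was higher at Schluchsee in July by 1.16 ± 0.34. GAEK01007895.1 and GAEK01007896.1 passed in no comparison, and isotig97694 passed only between the provenances among the comparisons run. As a group, 1 of the 5 fell from July to September at Wiesloch, 1 was lower at Schluchsee in July and 2 were lower in Cameron Lake.

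Between the provenances, 10 members were higher and 6 were lower in Cameron Lake over all months, against 10.6% of all contigs (4.32% higher and 6.27% lower). The members' median difference was 0.36, with a median of 0 over all contigs. The test was made on counts summed per tree, with 13 Salmon Arm and 12 Cameron Lake trees and the months sampled as covariates. The abundant galactinol synthase isotig17413 was higher in Cameron Lake by 0.86 ± 0.19 (adjusted p = 0.0087). At Schluchsee the 6 Salmon Arm trees ran from 562 through a median of 854 to 1288 CPM and the 7 Cameron Lake trees from 1300 through 2455 to 2974 CPM, without overlap. At Wiesloch the 7 Salmon Arm trees ran from 1447 through 1778 to 2578 CPM and the 5 Cameron Lake trees from 1959 through 2611 to 3266 CPM, which overlapped. In July at Schluchsee the 5 Salmon Arm libraries lay between 466 and 1021 CPM and the 5 Cameron Lake libraries between 1698 and 3313 CPM.

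The size of the provenance difference was compared between the sites after these values were seen. For isotig17413 it was larger at Schluchsee by 1.04 ± 0.29 on the log2 scale, with an unadjusted p of 0.0018 and an adjusted p of 0.47. In that test 0 of 58999 contigs passed, with 4225 of all contigs and 12 members at an unadjusted p under 0.05, and DESeq2 called 201 contigs and 0 members.

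The stachyose synthase contig GAEK01034936.1 was lower in Cameron Lake, with a difference of -2.22 ± 0.51 (adjusted p = 0.01), the reverse direction of the abundant galactinol synthase. Salmon Arm trees ran from 0.579 through a median of 9.86 to 31.6 CPM and Cameron Lake trees from 0.229 through 1.64 to 7.29 CPM. The lowest Salmon Arm trees were tree 14 at Wiesloch with 0.579 CPM and tree 14 at Schluchsee with 1.77 CPM, and the other 11 lay between 6.94 and 31.6 CPM. These trees stand at different sites and share a number only. An AT5G40390 contig, isotig49052, is also described as stachyose synthase, has the same best protein match and correlated with GAEK01034936.1 at 0.91. It was lower in Cameron Lake, with a difference of -2.79 ± 0.64 (adjusted p = 0.0098), and it was at or under the most frequent low value in 21 libraries.

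GAEK01034936.1 also rose from July to September at Wiesloch by 1.49 ± 0.60 (adjusted p = 0.041), a call that was lost without 1 of 7 trees, with an adjusted p of at most 0.08, and without the 4 libraries set apart (adjusted p = 0.066). The only measured phloem marker, the APL-like contig isotig24045, was lower in Cameron Lake as well, with a difference of -1.73 ± 0.21 (adjusted p = 4.1e-05). The other phloem loci of the list, 3 of 4, had no contig. The part of phloem tissue in the stachyose synthase difference was not tested.

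Among the other members, the 4 AT3G57520 contigs with the July peak were higher in Cameron Lake by 0.56 to 0.68, for GAEK01011761.1 by 0.68 ± 0.17 (adjusted p = 0.017). Its trees overlapped, from 28.3 to 111 CPM in Salmon Arm and from 33.6 to 191 CPM in Cameron Lake. The calls of isotig15589 and isotig38636 had an adjusted p of 0.12 and 0.079 without the months as covariates. Leaving out 1 tree ended the call of isotig15589 for 7 of the 25 trees (adjusted p of at most 0.075), that of isotig38636 for 10 (at most 0.1) and that of isotig69856 for 2 (at most 0.066). The AT2G47180 contig isotig128609 was higher in Cameron Lake by 0.99 (adjusted p = 0.019). Among the 5 AT3G57520 contigs described as 6-like, 2 were higher and 1 was lower there. The AT1G60470 contig isotig09065 was lower in Cameron Lake, with a difference of -1.75 ± 0.38 (adjusted p = 0.007). The AT3G57520 contig isotig97694 had a difference of -3.73 ± 0.64 (adjusted p = 0.0012). It was at or under the most frequent low value in 40 libraries, so the size of its difference is uncertain. The Cameron Lake trees ran from 0.027 to 0.156 CPM and the Salmon Arm trees from 0.0571 to 3.53 CPM.

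**Figure D4:**
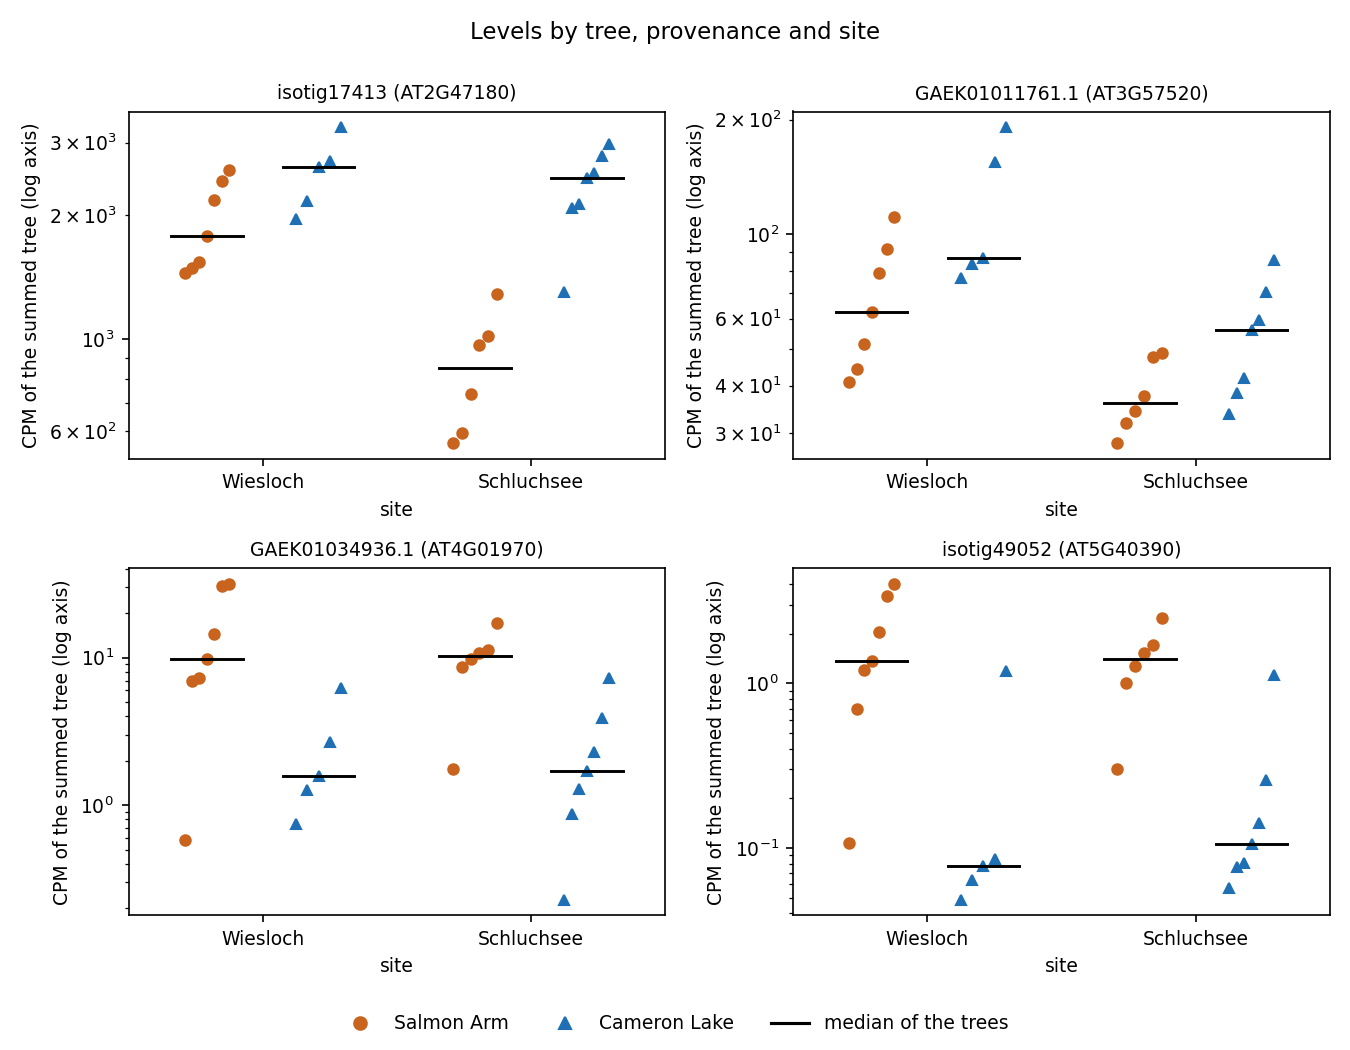
CPM (log axis) of 4 contigs in counts summed per tree, by site, with circles for Salmon Arm trees, triangles for Cameron Lake trees and a line for the median. In isotig17413 the Salmon Arm trees at Schluchsee (562 to 1288 CPM) lie under all Cameron Lake trees, and in GAEK01034936.1 and isotig49052 most Salmon Arm trees lie over the Cameron Lake trees.

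The contigs most like the July peak over the 16 group means were sought for isotig15589, by Pearson correlation of log levels among 9928 loci. They were GAEK01032207.1 (AT3G08970) with 0.963, isotig45887 (AT1G07400) with 0.961, isotig21577 (AT1G74310, the HSP101 chaperone) with 0.957, GAEK01018868.1 (AT4G27670, a small chloroplast heat shock protein) with 0.953 and isotig39761 (AT3G07090) with 0.951. In July at Wiesloch isotig21577 had a mean of 452 ± 91.2 CPM (SD, n = 10), against 33.6 ± 10.7 CPM at Schluchsee (n = 10). These correlations are a description over 16 group means that share visits.

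The cold-related dehydrin locus AT1G20440 (isotig10018) gave a comparison for the September course. It had a mean of 376 ± 110 CPM in September at Schluchsee (n = 8) against 65.8 ± 20.6 CPM at Wiesloch (n = 10). At Schluchsee its mean was already 54.1 ± 20.1 CPM in July (n = 10), after 8.02 ± 3.22 CPM in June (n = 9). In that step 1 of the 5 September AT2G47180 contigs passed. The July to September rise of isotig10018 was 2.79 ± 0.29 at Schluchsee (adjusted p = 3.6e-11) and 2.61 ± 0.28 at Wiesloch (adjusted p = 8.3e-12), beside the 2.45 and 1.46 of GAEK01009130.1. A further comparator, GAEK01009775.1 (AT5G05410), had September means of 50.1 ± 18.5 CPM at Schluchsee and 54.9 ± 29.8 CPM at Wiesloch. Its July means were 17.4 ± 6.42 and 21.1 ± 9.24 CPM.

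Counting supply genes, breakdown genes and further raffinose synthase homologues, 15 loci around the members had a contig. The month course differed between the sites for 6 of these 15, against 34.9% of all contigs. They were 3 of 5 loci for myo-inositol, 2 of 5 for UDP-galactose and 1 of 3 alpha-galactosidases. Neither of the 2 homologues passed. The UDP-glucose 4-epimerase contig GAEK01032052.1 (AT4G10960), whose enzyme makes the UDP-galactose that galactinol synthase uses, rose by 0.58 ± 0.08 from June to July at Schluchsee (adjusted p = 1.2e-07). It was higher there by 0.70 ± 0.10 in July (adjusted p = 9e-06) and by 0.55 ± 0.09 in September (adjusted p = 0.0015), with a September mean of 52.4 ± 8.46 CPM against 35.7 ± 2.91 CPM at Wiesloch.

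Myo-inositol, the other substrate, is made through inositol-3-phosphate synthase. One contig described so, isotig77804 (AT4G39800), had site and month means of only 1.02 to 1.96 CPM. It fell by 0.87 ± 0.25 from May to June at Schluchsee (adjusted p = 0.01) and rose by 0.89 ± 0.25 to July (adjusted p = 0.0071). Another, GAEK01018886.1 (AT2G22240), had Schluchsee means of 493 ± 113, 396 ± 94.7, 617 ± 207 and 572 ± 115 CPM in May, June, July and September. Of the 5 measured loci for myo-inositol, 2 fell and 0 rose from May to June at Schluchsee, where 6.94% of all contigs fell. From June to July there 2 rose and 0 fell, where 8.88% of all contigs rose. The alpha-galactosidase contig GAEK01014578.1 (AT5G08370), of a family that takes galactose off such sugars, fell by 2.98 ± 0.30 from July to September at Wiesloch (adjusted p = 1.3e-12) and by 1.75 ± 0.31 at Schluchsee (adjusted p = 4.3e-05). Its means fell from 122 ± 62 to 14.4 ± 9.21 CPM at Wiesloch and from 61.6 ± 26.3 to 19.3 ± 10.2 CPM at Schluchsee.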

How the data were processed

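Needle RNA of 25 trees was sequenced from TruSeq libraries, per the labels' protocols. Per the submitters' processing notes, the tools were HTSeq, Bowtie2 2.1 and CASAVA 1.7, with TAIR10 listed as a build; the mapping reference, its build and each tool's role are not given in the sources used here. The authors deposited raw counts per contig. Annotation cells vary in number, so 29654 of 59189 lines are longer than the header, and the last 75 cells of a line were read as counts.

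Counts were tested in R 4.3.3 with edgeR 4.0.16 (filterByExpr, TMM, glmQLFit, Benjamini-Hochberg adjustment over all contigs). Month steps and month by site came from a fit of 16 group means, site comparisons from a fit within each month, and provenances from counts summed per tree; in each fit 39 or 40 of the 40 members passed the filter on low counts. Standard errors are the log2 difference over the root of F. The members, lists and contig groups were chosen with earlier results of these data known. Named in full were the most counted contig of each locus and the 6 others with the lowest p for month by site; other contigs named were chosen after their values were seen. The same trees were sampled in several months, which the main fit ignores and a tree block tests. Tests were checked on simulated data without tree effects. Of 2-fold changes, 19% were recovered from June to July at Wiesloch and 5% for month by site. The site comparison in July recovered 41% and the provenance comparison 87%. Changes of 8-fold were recovered in 99% or 100%. A comparison that did not pass therefore does not show that a difference was absent. Alternatives were DESeq2 1.42.0 and its size factors, no filter, lowest values set to 0, sums per locus, clock time, and leaving out libraries or trees.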

Additional observations from a re-analysis of the deposited data

Results flagged for a closer look

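Among 176 groups of 4 or 5 libraries of the named contigs, 9 held a library far from the others of its group. That share is near the about 5% of groups that chance gives, so the 9 are listed as a description. Salmon Arm tree 14 gave 3 of the 9, each for the stachyose synthase contig GAEK01034936.1. Tree 14 at Schluchsee had 0.482 CPM in May, with the other libraries of its group between 10.1 and 17.1 CPM, and 4.49 CPM in September, with the others between 15.5 and 17.9 CPM. Tree 14 at Wiesloch, a different tree, had 0.679 CPM in July, with the others between 5.19 and 9.39 CPM. This July library and the September library of tree 14 at Schluchsee are among those set apart for a low value of 4.

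The galactinol synthase contigs of AT1G60470 gave 5 of the 9. Cameron Lake tree 12 at Wiesloch had 0.983 CPM of GAEK01021198.1 in June, with the others between 3.5 and 3.96 CPM. Salmon Arm tree 9 at Wiesloch had 0.283 CPM of GAEK01035510.1 in September, with the others between 0.0514 and 0.0721 CPM. Cameron Lake tree 15 at Wiesloch had 0.0296 CPM of isotig09065 in June, with the others between 0.207 and 0.253 CPM, and 0.0283 CPM of GAEK01002697.1 in May, with the others between 0.485 and 0.889 CPM. Both levels of tree 15 lie under 0.1 CPM and are uncertain. Salmon Arm tree 12 at Wiesloch had 0.885 CPM of GAEK01002697.1 in July, with the others between 1.55 and 1.83 CPM. The last was Cameron Lake tree 16 at Wiesloch, with 3.92 CPM of the AT3G57520 contig isotig15589 in September and the others between 7.71 and 8.24 CPM.

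The month course differed between the sites in edgeR's quasi-likelihood test for 8 of the 11 named contigs, against 34.9% of all contigs. Of the 11, 6 were named for their low p in this test, so the count was largely fixed by that choice. The adjusted p was 5.8e-13 for isotig15589, 1.8e-10 for GAEK01011761.1, 1.2e-10 for isotig38636 and 2.7e-09 for isotig69856, all of AT3G57520. It was 8.4e-11 for GAEK01021198.1, 7.2e-07 for GAEK01035510.1, 0.00056 for isotig09065 and 0.00063 for GAEK01002697.1, all of AT1G60470.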

How the results depend on the processing

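The share of members that passed is given for each setting that moved it by over 1.5 times, and for trees left out 1 at a time as a range. From May to June at Wiesloch it was 5% in DESeq2, 7.5% without the 4 libraries that stand apart, 10% with tree as a replicate block and 0 to 5% over the trees left out (highest without Salmon Arm tree 14 at Wiesloch), against 0%. Of all contigs, 4599 of 59178 passed that step as reported and 10224 of 59178 with the block. In DESeq2 5901 of 59031 passed, and 5516 of 59185 without the 4 libraries. From June to July at Wiesloch the members' share was 17.5% with clock time against 27.5%, and 20 to 30% over trees. Of all contigs, 4538 of 59189 passed that step with clock time, against 14863 of 59178. The fit with clock time kept only tree 9 of Cameron Lake in June at Wiesloch. Clock time and the loss of libraries thus cannot be told apart from June to July there. From July to September at Wiesloch the members' share was 40 to 47.5% over trees. At Schluchsee it was 60% of the 5 loci with counts summed per locus in both the May to June and the June to July step, 57.5% with the tree block in the latter against 37.5%, and 20% per locus from July to September. Over trees these 3 steps gave 17.5 to 37.5%, 22.5 to 40% and 32.5 to 37.5%, the first 2 lowest without Cameron Lake tree 11 at Schluchsee. Of all contigs, 14151 of 59178 passed from June to July at Schluchsee with the tree block, against 10087. Summed per locus, 5064, 5984 and 2698 of 35648 loci or contigs without a locus passed the 3 Schluchsee steps. For members month by site gave 47.5 to 62.5% over trees. Schluchsee minus Wiesloch in May gave 15.4% in DESeq2, 40% per locus, 0% with clock time and 10.3 to 25.6% over trees, highest without Cameron Lake tree 9 at Schluchsee. June gave 0% per locus, 0% with clock time and 0 to 2.5% over trees (lowest without Cameron Lake tree 10 at Schluchsee), July 35% with clock time and 50 to 70% over trees, and September 28.2 to 30.8% over trees. Of all contigs, 1725 of 57364 passed in May as reported, 4205 of 57232 in DESeq2 and 0 of 58492 with clock time. Recorded times nearly parted the sites in May, so clock time and site can hardly be told apart in that fit. In June 1812 of 57850 passed as reported and 31 of 58958 with clock time. In July these were 23964 of 57921 and 17753 of 58207. Summed per locus, 1003 of 34351 passed in May and 1190 of 34678 in June. For members the provenance comparison gave 22.5 to 42.5% over trees, lowest without Cameron Lake tree 13 at Wiesloch. Causes were not tested.

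Of 56 calls of the named contigs, 44 passed without each tree and 12 were lost without at least 1; no direction turned. All 56 passed under both DESeq2 settings, no filter and lowest values set to 0. The tree block, paired by the labels' tree numbers, lost 2, both of isotig09065 at Schluchsee (adjusted p of 0.13 from June to July and 0.091 to September). Clock time lost 7 calls and kept 42, leaving out the 4 libraries lost 3 and leaving out the months as covariates lost 2. For the rise of isotig09065 from July to September at Schluchsee the adjusted p was 0.05 with clock time and 0.06 without the 4 libraries. Low contigs are limited by the most frequent low values of 2 and 4 counts.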
